A study of Mus musculus with 19 samples.

Results

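The evening arm of the circadian clock was read from 10 genes, Per1, Per2, Per3, Nr1d1, Nr1d2, Dbp, Tef, Hlf, Ciart and Bhlhe41, chosen by name from a table of 20408 genes, in which each had 1 row. These genes and the gene lists below were chosen with earlier results of these data known. Counts of them beside the share of all genes are therefore descriptions. RNA of the suprarenal abdominal aorta was sequenced in 19 male mice after 24 h of infusion from an osmotic pump. Of 10 IKKβ+/+ mice, 5 received angiotensin II (Ang II) and 5 saline, and of 9 IKKβ-/- mice 5 received Ang II and 4 saline. Aortas of the IKKβ-/- group (KO in the labels) came from SMA-CreERT2 Ikkb Flox/Flox ApoE-/- mice, in which a tamoxifen-activated Cre under the smooth muscle actin promoter deletes the gene in smooth muscle cells and leaves it in the other cells of the wall. The IKKβ+/+ group (WT in the labels) were littermates of genotype SMA-CreERT2 ApoE-/-, which carry the same Cre, the same lack of ApoE and the same tamoxifen treatment, on a C57BL/6J background. Mice were on chow, and the labels give their age as 8 weeks, which in the methods is the age at the first tamoxifen injection, before the recovery period and the implantation of the pumps. The labels give the Ang II dose as a range, 500 to 1000 ng/min/kg, and the methods name its upper end. Ang II is a peptide hormone that raises blood pressure and is used with ApoE deficiency as a model of abdominal aortic aneurysm.

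The circadian clock is a transcription loop that runs in nearly every cell. ARNTL (also called BMAL1) pairs with CLOCK or NPAS2 and binds E-boxes, and among the genes it turns on are repressors that later shut it down. The members are such genes or act close to them. PER1, PER2 and PER3 form complexes with the cryptochromes and inhibit the activator. NR1D1 and NR1D2 (REV-ERBα and REV-ERBβ) are nuclear receptors that repress Arntl. DBP, TEF and HLF are the PAR-bZIP factors, which activate genes through D-boxes. CIART (also called CHRONO) and BHLHE41 (DEC2) are further repressors of ARNTL with CLOCK. In mouse tissues, the vessel wall among them, these genes peak before or around the change from day to night, not all at the same hour. They run broadly opposite to Arntl. Their level therefore depends on the time at which a tissue is taken. Neither the labels nor the methods of the study give that time. Each group had its own block of mouse numbers, so a time of collection or a batch cannot be told apart from the groups.

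Promoters were shown where their letters bear on the members' roles. RefSeq windows of GRCm38.p6, from 250 bases before to 50 bases after a start site, were found for 9 of the 10 members, in 11 windows (Per1 and Tef had 2 each), and Per2 was not matched. The motifs searched, on both strands, were the E-box CACGTG, the variant CACGTT, the D-boxes TTATGTAA and TTACGTAA, the nuclear receptor element AGGTCA and the cAMP element TGACGTCA. Of all 32851 windows, 7.15% held the E-box, 4.68% the variant, 1.06% a D-box, 16.3% the receptor element and 1.79% the cAMP element. The E-box was in windows of 4 members, Per1, Tef, Ciart and Bhlhe41. Capitals mark the matches in the 5 windows printed, 5′ to 3′ on the strand of the gene, which are those of Ciart and Per3 (several matches each), of Per1 and Bhlhe41 (1 E-box each) and of Nr1d1, which passed in no comparison of all mice. Matches in the windows of the members did not overlap.

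The window of Ciart (chr3:95882179-95882478, minus strand) held 3 E-boxes, the most of any member. That of Per3 (chr4:151044616-151044915, minus strand) held 2 D-boxes, the motif of DBP, TEF and HLF. The first Per1 window (chr11:69098699-69098998, plus strand) held an E-box and a receptor element on the opposite strand. An E-box stood in the window of Bhlhe41 (chr6:145865371-145865670, minus strand), and the variant, on the opposite strand, in that of Nr1d1 (chr11:98775328-98775627, minus strand).
Ciart: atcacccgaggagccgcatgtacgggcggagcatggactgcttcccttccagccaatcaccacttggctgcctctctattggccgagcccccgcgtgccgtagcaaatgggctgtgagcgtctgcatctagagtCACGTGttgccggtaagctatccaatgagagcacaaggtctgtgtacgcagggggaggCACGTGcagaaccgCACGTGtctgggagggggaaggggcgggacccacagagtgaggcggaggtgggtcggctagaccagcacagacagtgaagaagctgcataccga
Per3: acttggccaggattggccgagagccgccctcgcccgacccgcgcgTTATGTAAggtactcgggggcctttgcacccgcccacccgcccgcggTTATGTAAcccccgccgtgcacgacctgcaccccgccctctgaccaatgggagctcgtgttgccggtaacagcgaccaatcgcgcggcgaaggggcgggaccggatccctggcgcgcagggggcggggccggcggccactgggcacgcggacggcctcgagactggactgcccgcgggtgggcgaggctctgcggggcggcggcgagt
Per1: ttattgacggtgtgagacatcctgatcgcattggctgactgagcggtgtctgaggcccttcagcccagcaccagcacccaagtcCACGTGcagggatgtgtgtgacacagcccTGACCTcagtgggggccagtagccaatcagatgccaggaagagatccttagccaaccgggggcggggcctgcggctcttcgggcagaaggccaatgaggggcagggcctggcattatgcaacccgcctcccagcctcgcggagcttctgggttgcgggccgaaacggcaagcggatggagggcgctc
Bhlhe41: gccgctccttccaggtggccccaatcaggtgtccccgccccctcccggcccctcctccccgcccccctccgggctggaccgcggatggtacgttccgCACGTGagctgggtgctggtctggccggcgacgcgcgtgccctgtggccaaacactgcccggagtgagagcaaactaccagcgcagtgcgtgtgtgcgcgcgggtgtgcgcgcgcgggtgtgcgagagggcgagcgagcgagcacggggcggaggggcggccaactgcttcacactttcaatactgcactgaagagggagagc
Nr1d1: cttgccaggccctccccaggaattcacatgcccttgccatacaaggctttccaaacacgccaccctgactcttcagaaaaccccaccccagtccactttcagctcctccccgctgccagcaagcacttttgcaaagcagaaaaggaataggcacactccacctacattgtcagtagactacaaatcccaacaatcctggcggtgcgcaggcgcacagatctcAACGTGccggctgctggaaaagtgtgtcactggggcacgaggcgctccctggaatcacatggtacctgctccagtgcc
Both Tef windows held an E-box, the Nr1d2 window a receptor element and the Hlf window the cAMP element. No match was found in the Dbp window, which says only that these letters are not in those 300 bases. A match is a description and no evidence of binding.

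Values are normalised read counts, the reads of a mouse divided by its size factor, and libraries held 11382573 to 19906694 reads assigned to genes. All 10 members were among the 14845 genes tested. Ikbkb, which encodes IKKβ and is the target of the deletion, had 533 ± 78.9 normalised counts (SD, n = 9) in IKKβ-/- and 699.7 ± 66.8 (SD, n = 10) in IKKβ+/+ aortas, 23.8% lower (two-sided exact permutation test, p = 0.000173), in RNA that also holds the cells that keep the gene. Smooth muscle markers (Myh11, Acta2, Tagln, Cnn1, Smtn and Lmod1) summed to between 304360.0 and 633459 normalised counts in every mouse, as the tissue label says. In such bulk RNA, fewer cells of a type and less RNA per cell cannot be told apart. A gene passed the test at a Benjamini-Hochberg adjusted p under 0.1 (limma, over all genes tested) and a fold change above 1.2. Log2 fold changes from limma are differences between group means of log2(normalised count + 1) and are given with their standard error. The added 1 understates the change of low genes. A fold given beside such a value is the same value on the linear scale, a ratio of geometric means.

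Per kilobase of exon (Gencode M21), the members spanned a wide range of levels. In saline-infused IKKβ+/+ aortas Nr1d1 was highest, at 894 ± 562 normalised counts per kb (SD, n = 5), followed by Dbp (439.5 ± 439.8), Nr1d2 (365 ± 242) and Tef (254 ± 159.5), and Ciart was lowest (12.01 ± 12.7). Neighbours in the order of all 10 members had overlapping ranges of mean ± SD. In saline-infused IKKβ-/- aortas Dbp was highest, at 1351 ± 363 normalised counts per kb (SD, n = 4), followed by Nr1d1 (1003 ± 219.9), Nr1d2 (685 ± 81.2) and Tef (512 ± 75.1). Ranges of mean ± SD did not overlap between Nr1d1 and Nr1d2, Nr1d2 and Tef, or Tef and Per1 (211 ± 70.4), whereas Per1, Per2, Bhlhe41 and Hlf had levels per kb that overlapped within 1 SD. After Ang II, Nr1d1 was highest in both genotypes (493 ± 91.1 per kb in IKKβ+/+ and 858 ± 181 in IKKβ-/- mice, SD, n = 5 each) and Ciart lowest (4.50 ± 1.33 and 8.80 ± 7.35).

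**Figure D1:**
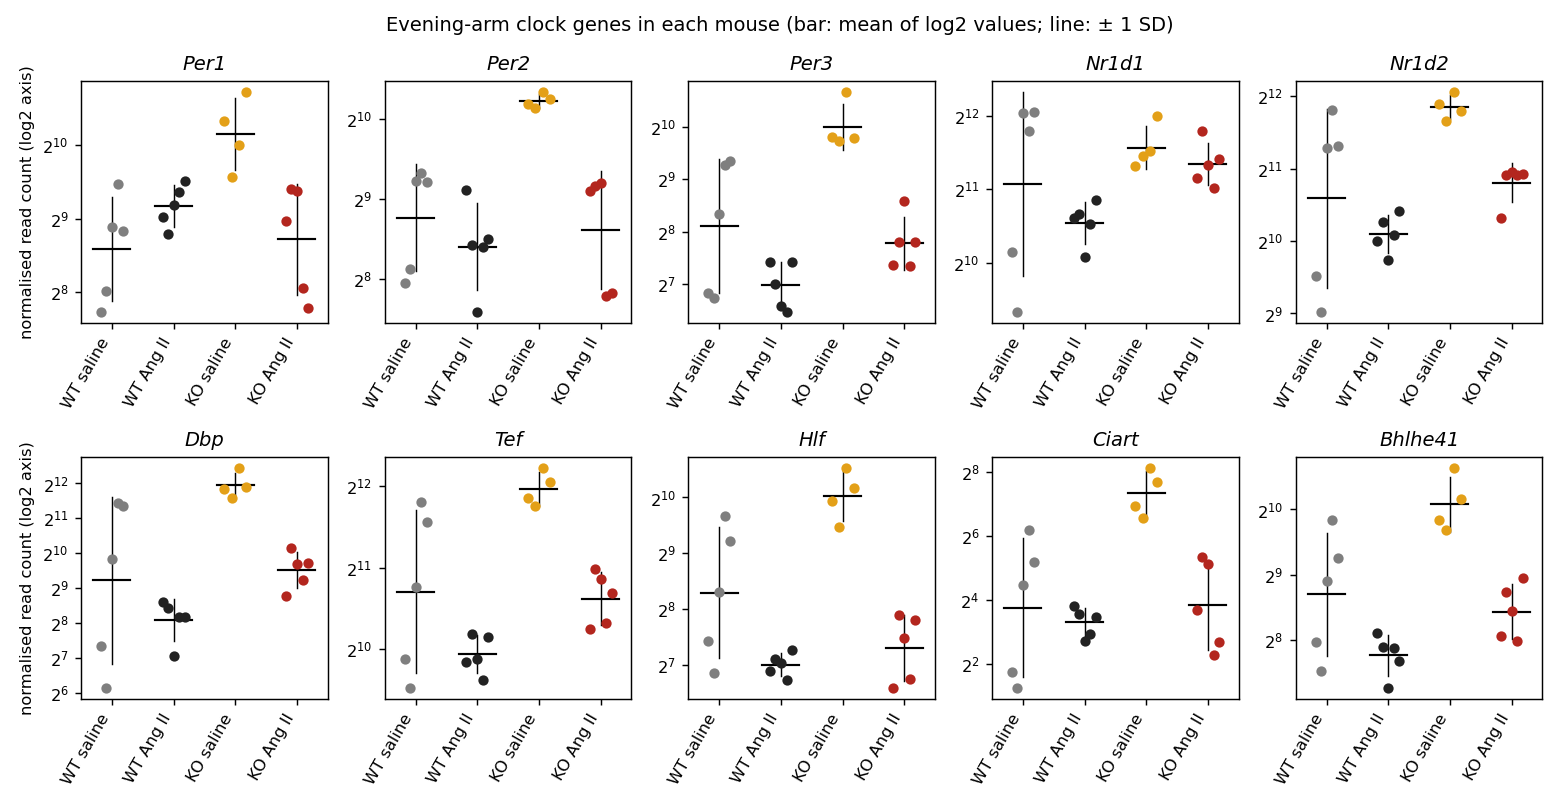
Normalised read count of each of the 10 members in each mouse (log2 axis, 1 panel per gene), by group. The horizontal bar is the mean of the log2 values and the vertical line ± 1 SD. Saline-infused WT (IKKβ+/+) mice are split into 2 low and 3 high mice in most panels, and saline-infused KO (IKKβ-/-) mice are high throughout, with the 3 high WT mice in the same range for Nr1d1.

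The saline-infused IKKβ+/+ mice did not share one level of the evening arm. Dbp, a PAR-bZIP factor (chr7:45705088-45710203 of GRCm38), had 164, 71.5, 923, 2806 and 2613 normalised counts in mice X2370, X2372, X2373, X2376 and X2378, a range of 39.3-fold. In the 4 saline-infused IKKβ-/- mice it had 3705, 3060.4, 5597 and 3813, a range of 1.83-fold. X2370 and X2372 held the 2 lowest values of their group in all 10 members. For Nr1d1 (chr11:98767932-98775333) the same 5 mice had 1132, 645, 4189, 3546 and 4235 normalised counts. Here X2373, X2376 and X2378 stood together, and X2370 and X2372 lay apart below them. Nr1d1 overlaps Thra on the opposite strand, and the libraries were stranded, but whether strand was used in counting is not given in the sources used here. Ciart (chr3:95878503-95882251) had 3.33, 2.38, 22.03, 72.2 and 35.9 normalised counts in them, the lowest from 3 reads, with X2373 between the low and the high mice.

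The SD of the log2 values in saline-infused IKKβ+/+ mice was 2.38 for Dbp, 1.94 for Ciart and 0.67 for Per2, the smallest among the members. The median over all genes tested was 0.21. Only 0.101% of genes tested had a larger SD than Dbp in this group, and 8.5% a larger one than Per2. In the other groups the members varied more like other genes. The share of genes tested with a larger SD than a member ran from 19.6% (Dbp) to 66.9% (Hlf) in Ang II-treated IKKβ+/+ mice. It ran from 15.7% (Ciart) to 94.8% (Per2) in saline-infused IKKβ-/- mice and from 5.54% (Ciart) to 59.1% (Nr1d2) in Ang II-treated IKKβ-/- mice. Of the mice with low values, X2370 had the deepest library (19906694 reads) and X2372 had 17014838 reads. Their summed white adipocyte markers were the highest (8919) and the lowest (885) of the group. Results that rest on saline-infused IKKβ+/+ mice are given below with single mice left out.

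With saline, the evening arm was higher in IKKβ-/- than in IKKβ+/+ aortas. Of the 10 members, 9 passed the test as higher, all but Nr1d1, and none as lower. Over all genes tested, 3.40% passed in this direction. The median log2 difference of the members was 1.51, against -0.02 over all genes tested. In 5 members (Per1, Per2, Per3, Dbp and Ciart) every IKKβ-/- mouse lay above every IKKβ+/+ mouse, which held for 4.68% of genes tested. In each of the other 5, the IKKβ+/+ mouse X2376 reached the IKKβ-/- range.

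Ciart, a repressor of the ARNTL-CLOCK pair, differed most. Its 4 saline-infused IKKβ-/- mice had 122, 94.8, 279 and 204 normalised counts, against 2.38 to 72.2 in IKKβ+/+ mice. This was 10.4-fold higher in IKKβ-/- aortas (log2 difference 3.37 ± 0.76, adjusted p = 0.0464, limma). On the recovered reads the log2 difference of Ciart was smaller, 2.69 in edgeR and in DESeq2 (adjusted p = 0.0495 and 0.00556). Dbp was 6.52-fold higher (2.704 ± 0.76, adjusted p = 0.0721), and its lowest IKKβ-/- mouse, at 3060.4 normalised counts, stood just above the highest IKKβ+/+ mouse, at 2806. The other PAR-bZIP factors were higher as well, Hlf by 1.73 and Tef by 1.26 on the log2 scale (adjusted p = 0.0519 and 0.0591).

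All 3 Period genes were higher in saline-infused IKKβ-/- aortas. Per2 (chr1:91415982-91459324) had 1164, 1125, 1292 and 1219.9 normalised counts in IKKβ-/- and 248, 278, 597, 638 and 591 in IKKβ+/+ mice. The IKKβ-/- mice lay close together and well above the IKKβ+/+ mice, a 2.75-fold difference (log2 1.46 ± 0.35, adjusted p = 0.0495). Per1 (chr11:69095217-69109960), which glucocorticoids and cAMP signals can also induce at once, had 1286, 759, 1019.7 and 1687 normalised counts in IKKβ-/- and 212, 259, 472, 712 and 456 in IKKβ+/+ mice. Its log2 difference was 1.56 ± 0.35 (adjusted p = 0.0464). Per3 (chr4:151003652-151044665) had 888, 852, 1616 and 879 in IKKβ-/- against 114, 106, 323, 618 and 651 in IKKβ+/+ mice, with X2406 far above the other 3 (log2 difference 1.88 ± 0.45, adjusted p = 0.0501).

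Both Rev-erb genes had a higher point estimate in IKKβ-/- aortas with saline, and only Nr1d2 passed. The difference between the 2 genes was not tested. Nr1d2 (chr14:18204054-18239127) had 3804, 3222, 4261 and 3542 normalised counts in IKKβ-/- and 733, 519, 2495, 3594 and 2531 in IKKβ+/+ mice, and passed at a log2 difference of 1.26 ± 0.40 (adjusted p = 0.0947), although X2376 lay inside the IKKβ-/- range. Nr1d1 had 2543, 2795, 2937 and 4072 in IKKβ-/- mice, a range that the 3 high IKKβ+/+ mice (3546 to 4235) shared or passed. Its log2 difference was 0.50 ± 0.41 (adjusted p = 0.529). Bhlhe41 (chr6:145858243-145865558) was higher by 1.38 (adjusted p = 0.0563), from 489 ± 295 (SD, n = 5) to 1120.5 ± 344 normalised counts (SD, n = 4).

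These calls lie near the threshold and depend on single mice. At an adjusted p under 0.05 only Per1, Per2 and Ciart remained. Without the IKKβ-/- mouse X2406 no member passed, with log2 differences still positive in all 10 members (0.51 to 3.11, adjusted p from 0.133 to 0.659), and the calls over all genes fell from 812 to 24. X2406 had the fewest reads of all mice (11382573). Per1 and Ciart alone passed without X2370 and without X2403, and with Per2 also without X2373. With the edgeR quasi-likelihood test on the recovered reads, Nr1d2, Dbp and Tef did not pass (adjusted p = 0.186, 0.184 and 0.102), and Dbp had a log2 difference of 1.62 there.

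**Figure D2:**
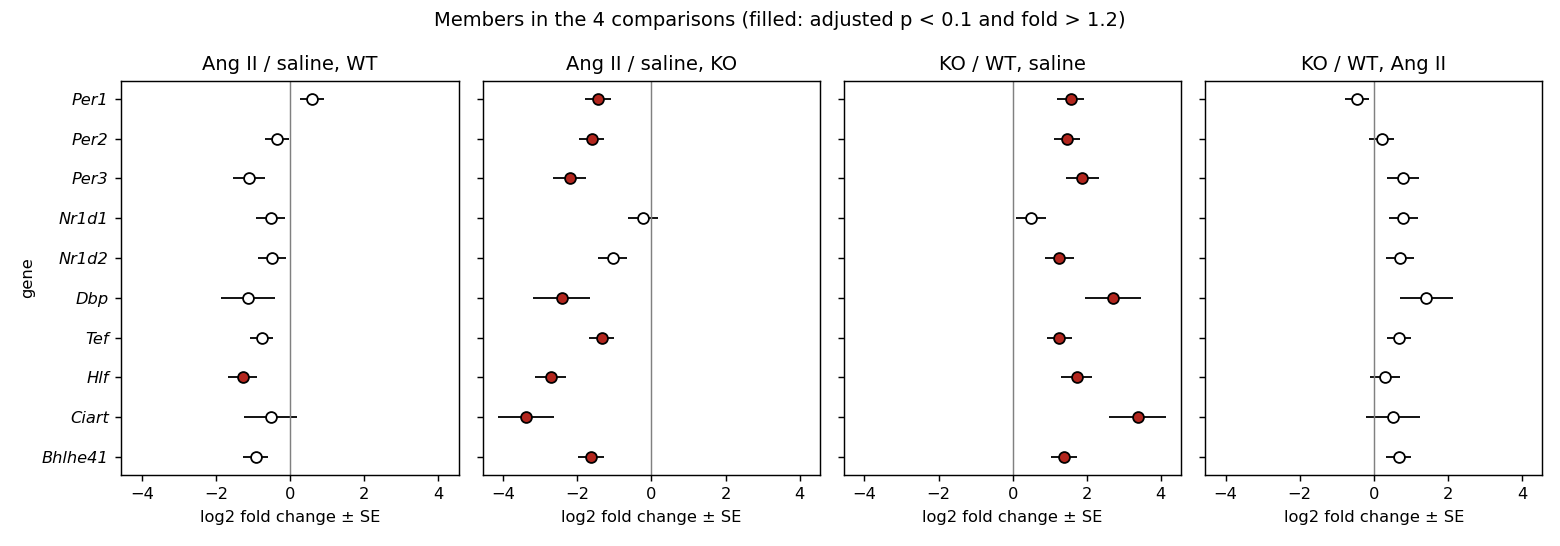
Log2 fold change of each member in the 4 comparisons (points, ± SE as horizontal lines, limma). Filled points passed the test: 1 of 10 for Ang II in WT (IKKβ+/+) mice, 8 for Ang II in KO (IKKβ-/-) mice, 9 for KO against WT with saline and 0 with Ang II.

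Most of the evening arm was lower with Ang II than with saline in IKKβ-/- aortas. Of the 10 members, 8 fell and none rose, where 2.69% of all genes tested fell. Their median log2 fold change was -1.63, against -0.003 over all genes tested. Every Ang II-treated mouse lay below every saline-infused mouse in 9 members, all but Nr1d1, and this held for 2.88% of genes tested. This comparison has the same saline-infused IKKβ-/- mice as the comparison with saline above, so the 2 sets of calls are not independent.

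The PAR-bZIP factors Hlf and Dbp fell furthest after Ciart. Hlf (chr11:90336536-90390895) went from 976, 712, 1483 and 1149 normalised counts with saline to 96.1, 237, 178, 108 and 222 with Ang II. The groups were far apart, and the fold change was 6.58-fold down (log2 -2.72 ± 0.42, adjusted p = 0.00319), the smallest adjusted p of any member. Dbp had 441, 1132, 823, 609 and 848 with Ang II, all below its lowest saline-infused mouse (3060), at log2 -2.43 ± 0.76 (adjusted p = 0.095). Tef (chr15:81802421-81826863) had 1213, 2020.0, 1863, 1277 and 1654 with Ang II against 3680.0, 3444, 4769 and 4215 with saline (log2 -1.34 ± 0.33, adjusted p = 0.0331). Ciart fell to 12.9, 40.5, 34.9, 4.82 and 6.43 normalised counts with Ang II, the lowest from 3 reads, a fold change of 10.4-fold down (log2 -3.38 ± 0.76, adjusted p = 0.0211). On the recovered reads its log2 fold change was -3.06 in edgeR and -3.11 in DESeq2.

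Among the Period genes, Per3 fell most in IKKβ-/- aortas, to 165, 222, 386, 162 and 224 normalised counts (log2 -2.21 ± 0.45, adjusted p = 0.0144). Per1 and Per2 split the Ang II-treated IKKβ-/- mice in the same way. Per1 had 502, 674, 664, 265 and 221 and Per2 547, 569.9, 587, 220.0 and 226 normalised counts in X2380, X2383, X2384, X2385 and X2386, with X2385 and X2386 low in both. Among the other members, Ciart alone was also lowest in X2385 and X2386 (4.82 and 6.43). Outside the members, so was Wee1 (93.1 and 96.4). Per1 and Per2 both fell (log2 -1.43 ± 0.35 and -1.61 ± 0.35, adjusted p = 0.0308 and 0.0173). Bhlhe41 lay between 825 and 1594 normalised counts with saline and between 254 and 495 with Ang II (log2 -1.64 ± 0.35, adjusted p = 0.0166).

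The Rev-erb genes did not pass in IKKβ-/- aortas. Nr1d2 had 1277, 1934, 1986, 1927 and 1945 normalised counts with Ang II, all below the lowest saline-infused mouse (3222), with a log2 fold change of -1.04 ± 0.40 (adjusted p = 0.17). Nr1d1 had 2289, 3534, 2578, 2084 and 2721 with Ang II, 3 of them inside its saline range of 2543 to 4072 (log2 -0.23 ± 0.41, adjusted p = 0.831). Leaving out single mice left between 6 and 8 members past the threshold. Dbp was the least stable call: its adjusted p was above the threshold in 8 of the 9 fits with a mouse left out (0.122 to 0.21, log2 -2.55 to -2.24) and with array quality weights (0.252), and it passed without X2383 (0.0832). Without X2406 Tef did not pass either (0.103), which left 6.

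White adipocyte markers moved opposite to the evening arm in IKKβ-/- aortas. All 5 tested of 6 (Adipoq, Plin1, Cidec, Fabp4 and Retn) rose with Ang II, with a median log2 fold change of 4.04, while 2.59% of genes tested rose. Lep was left out for low counts. The summed level of the list ran from 1030.5 to 4153 normalised counts in saline-infused and from 2369.99 to 24731 in Ang II-treated IKKβ-/- mice, and from 885 to 8919 and 2567 to 6379.9 in the IKKβ+/+ groups. With saline the list had a median log2 difference of -2.23 between genotypes, with none of the 5 past the threshold. Its part in the changes of the members was not tested.

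In IKKβ+/+ aortas 1 member, Hlf, was lower with Ang II than with saline past the threshold, while 4.33% of genes tested fell. The point estimate was negative in 9 members and positive in Per1, with a median of -0.65, against 0.01 over all genes tested. In no member did the groups stand apart (4.47% of genes tested did so downward). In the 9 members with a negative estimate X2370, X2372 or both lay within or below the Ang II-treated range, and in Per1 the other 3 saline-infused mice lay within it. Hlf had 171, 116, 317, 814 and 595 normalised counts with saline and 119, 138, 131, 106 and 153 with Ang II (log2 -1.29 ± 0.40, adjusted p = 0.0713, limma). The Ang II-treated mice were tightly grouped at the level of the 2 low saline-infused mice.

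Dbp had 393, 346, 134, 291 and 288 normalised counts in Ang II-treated IKKβ+/+ mice, below the 3 high saline-infused mice and above X2372. Its log2 fold change was -1.14 ± 0.72 (adjusted p = 0.391), and ran from -1.91 without X2372 to -0.59 without X2376. On the recovered reads, edgeR and DESeq2 gave Dbp -2.18 (adjusted p = 0.0575 and 0.0219), and each called 5 members (Per3, Dbp, Tef, Hlf and Bhlhe41) in place of 1. These fits compare mean counts (for Dbp 1315 with saline and 290 with Ang II), and limma compares means of log2 values. In the limma fit Per3 (-1.12 ± 0.43, adjusted p = 0.139), Bhlhe41 (-0.93 ± 0.33, adjusted p = 0.109) and Tef (-0.77 ± 0.32, adjusted p = 0.172) did not pass. Nr1d1 had 1557, 1621, 1082, 1473 and 1849 and Nr1d2 1025, 1234, 851, 1084 and 1371 normalised counts with Ang II, all below their 3 high saline-infused mice and above X2372. Neither receptor passed (log2 -0.53 ± 0.38 and -0.49 ± 0.37, adjusted p = 0.47 and 0.495). Without X2372 their values were -0.96 and -0.88, while Nr1d1 had -0.28 without X2378 and Nr1d2 -0.18 without X2376.

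Per1 had 518, 442, 581, 660.2 and 729 normalised counts with Ang II in IKKβ+/+ mice, against 212, 259, 472, 712 and 456 with saline. The Ang II-treated mice lay above the 2 low saline-infused mice and around the other 3 (log2 0.58 ± 0.33, adjusted p = 0.337). Per2 had 553, 344, 192, 336 and 359.8 with Ang II (log2 -0.36 ± 0.33, adjusted p = 0.577), and Ciart 13.9, 11.7, 6.58, 7.64 and 10.9 (log2 -0.52 ± 0.72, adjusted p = 0.736), both with overlapping groups. The number of members past the threshold was 4 without X2370 and 6 without X2372, and 0 without X2350, X2358, X2373, X2376 or X2378. Without X2372 the 6 were Per3, Nr1d1, Dbp, Tef, Hlf and Bhlhe41, all lower with Ang II. The estimate for Hlf lay between -1.64 (without X2372) and -0.94 (without X2376), that for Per1 between 0.37 (without X2370) and 0.81 (without X2376), and that for Per2 between -0.56 (without X2370) and -0.16 (without X2356).

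**Figure D3:**
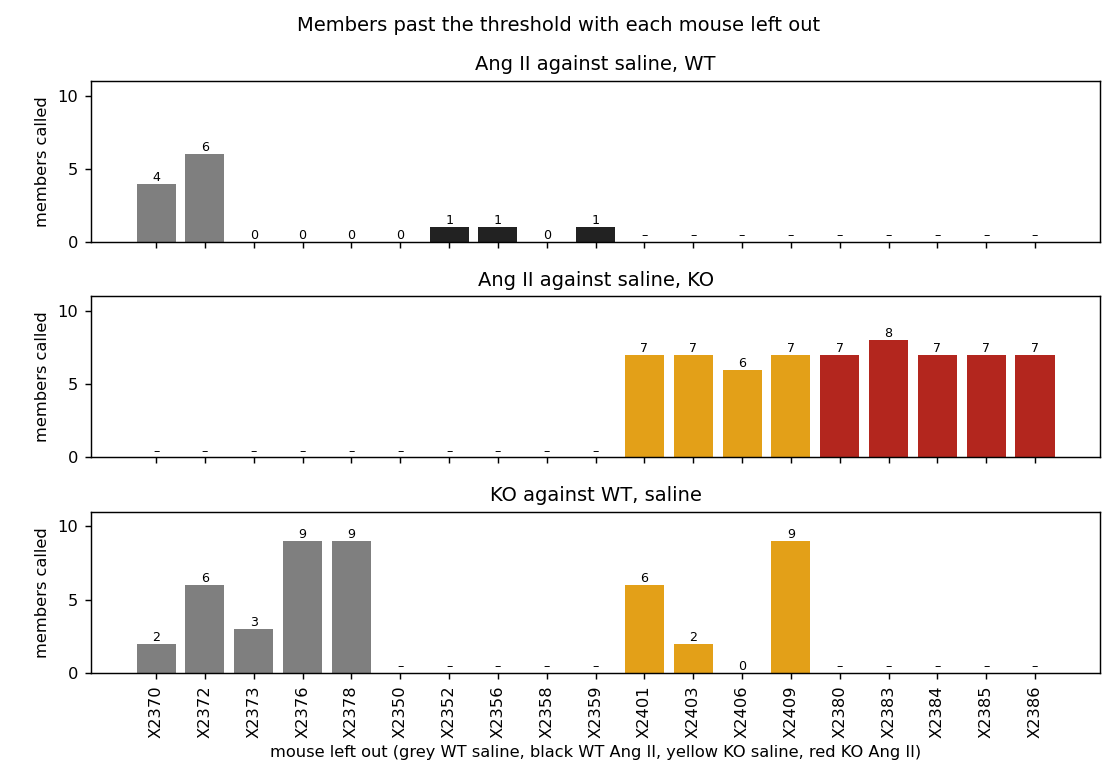
Number of members past the threshold when each mouse is left out (bars, 1 per mouse left out, coloured by group; a dash marks mice that are not part of the comparison). For Ang II in WT (IKKβ+/+) mice the number runs from 0 to 6, for Ang II in KO (IKKβ-/-) mice from 6 to 8, and for KO against WT with saline from 0 to 9.

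After Ang II the genotypes did not differ past the threshold in any member, and 0.128% of genes tested passed in either direction. An unadjusted p under 0.05 in limma was found for 1 of the 10 members (Tef) and for 2118 of the 14845 genes tested. The share of the members was thus no larger than that of all genes. The point estimate was higher in IKKβ-/- aortas in 9 members, with a median log2 difference of 0.67. Groups did not overlap in Nr1d1, Dbp and Tef, each higher in IKKβ-/- mice, as in 0.653% of genes tested. Nr1d1 had 2084 to 3534 normalised counts in IKKβ-/- and 1082 to 1849 in IKKβ+/+ mice (log2 0.80 ± 0.38, adjusted p = 0.353). Dbp had 441 to 1132 and 134 to 393 (log2 1.42 ± 0.72, adjusted p = 0.374), and Tef 1213 to 2020.0 and 792 to 1170 (log2 0.68 ± 0.32, adjusted p = 0.338). Per1 was the member with a lower estimate in IKKβ-/- mice (log2 -0.46 ± 0.33, adjusted p = 0.541).

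The difference between the Ang II effects of the genotypes was tested as such. No member and 0.00% of genes tested passed. An unadjusted p under 0.05 in limma was found for 4 of the 10 members and for 1654 of the 14845 genes tested. Per1 had the smallest p of the members, with an Ang II effect in IKKβ-/- minus that in IKKβ+/+ mice of -2.02 ± 0.48 on the log2 scale (adjusted p = 0.215). It alone among the members passed in DESeq2 (-1.83, adjusted p = 0.0247, with 279 genes in all) and with array quality weights in limma (-2.20, adjusted p = 0.0988), and none of them passed in edgeR, which called 3 genes. For Ciart the difference was -2.86 ± 1.05, for Hlf -1.43 ± 0.58 and for Per2 -1.25 ± 0.48 (adjusted p = 0.34, 0.378 and 0.363). Nr1d1 was the member with a positive difference (0.30 ± 0.56, adjusted p = 0.857). The larger number of members past the threshold in IKKβ-/- than in IKKβ+/+ aortas is therefore not shown to be a difference between the genotypes, Per1 apart in the 2 fits named.

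Arntl, Npas2 and Clock, on the activator side of the clock, ran opposite to the evening arm. Of a list of core clock genes outside the 10 members (11 genes, 10 of them tested), Arntl, Npas2 and Clock rose with Ang II in IKKβ-/- aortas and were lower in IKKβ-/- than in IKKβ+/+ aortas with saline, where 2.07% of genes tested were lower. Arntl had 109, 51.6, 12.6 and 51.5 normalised counts in saline-infused IKKβ-/- mice, against 786, 921, 537, 72.2 and 165 in saline-infused IKKβ+/+ mice. The lowest Arntl value of all was in X2406, the mouse with the highest Dbp, and the highest IKKβ+/+ saline values were in X2372 and X2370. With Ang II, Arntl had 427, 379, 255, 453 and 441 in IKKβ-/- and 995, 609, 723, 742 and 479 in IKKβ+/+ mice. Its log2 fold change with Ang II was 3.09 ± 0.60 in IKKβ-/- mice (adjusted p = 0.0105) and 1.01 ± 0.57 in IKKβ+/+ mice (adjusted p = 0.331), and the genotypes differed by -2.93 ± 0.60 with saline (adjusted p = 0.0367). Npas2 and Clock rose by 2.13 and 0.64 with Ang II in IKKβ-/- aortas (adjusted p = 0.0147 and 0.0186). With saline they differed between genotypes by -2.13 and -0.65 (adjusted p = 0.0367 and 0.0367). With single mice left out, values of single genes were taken for the members and Ikbkb only. Over all genes, the calls with saline fell from 812 to 24 without X2406. The calls with saline for genes of the lists, here and below, carry that limit.

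Further genes of that list, Cry1, Cry2, Nfil3, Rora, Arntl2 and Bhlhe40, passed in none of the comparisons. Cry1 and Cry2, the partners of the PER proteins, had log2 fold changes with Ang II of -0.67 and -0.42 in IKKβ-/- mice (adjusted p = 0.411 and 0.317). Nfil3, which represses through the D-box that the PAR-bZIP factors use, had -0.27 in IKKβ-/- and 0.89 in IKKβ+/+ mice (adjusted p = 0.831 and 0.285).

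**Figure D4:**
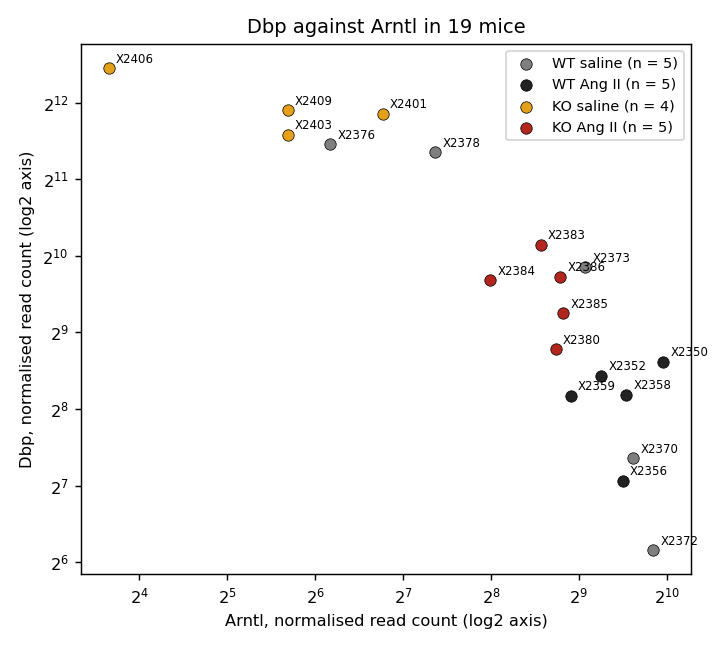
Normalised read count of Dbp against that of Arntl in each of the 19 mice (both axes log2), coloured by group. Saline-infused KO (IKKβ-/-) mice lie at upper left and Ang II-treated WT (IKKβ+/+) mice at lower right, while saline-infused WT mice run from X2376 at the upper left to X2372 at the lower right.

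The ratio of Dbp to Arntl within a mouse put both sides of the clock on 1 scale. Its log2 was -2.25, -3.67, 0.78, 5.26 and 3.98 in saline-infused IKKβ+/+ mice X2370, X2372, X2373, X2376 and X2378. It ran from 5.07 to 8.68 in saline-infused IKKβ-/- mice, from -2.42 to -0.73 in Ang II-treated IKKβ+/+ mice and from 0.05 to 1.69 in Ang II-treated IKKβ-/- mice. The saline-infused IKKβ+/+ mice thus covered the range of both Ang II-treated groups, with X2376 inside the range of the saline-infused IKKβ-/- mice, and the other 3 groups did not overlap each other. The ratio was not tested.

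Levels of the members were positively correlated over the mice. Over the 19 mice, Pearson's r between log2 values was positive in all 45 pairs of members, from 0.47 to 0.97 with a median of 0.88. With the group means subtracted it was again positive in all 45, with a median of 0.84. These are descriptions over mice that share their libraries and scaling. Subtracting the means leaves the wide spread of the saline-infused IKKβ+/+ mice (SD of log2 Dbp 2.38, against 0.36 to 0.60 in the other groups). These mice therefore weigh most in that r for genes such as Dbp. Within Ang II-treated IKKβ-/- mice the order differed: X2380 had the lowest Nr1d2 (1277) but 547 for Per2. X2385, with 220 for Per2, had 1927 for Nr1d2. The r of a member with the mean standardised level of the 10, which includes that member, was highest for Tef (0.98) and Dbp (0.97) and lowest for Per1 (0.75) and Nr1d1 (0.81). For Nr1d1 it was 0.91 with the group means subtracted.

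Among the 14835 tested genes that are no members, Wee1, a cell cycle kinase under clock control, was most like them (r = 0.89 over 19 mice, 0.80 with the group means subtracted). It had 367 to 512 normalised counts in saline-infused IKKβ-/- mice and 93.1 to 218 in Ang II-treated IKKβ-/- mice. Tcap (0.87), which encodes a sarcomere protein, Fabp3 (0.84), a fatty acid binding protein, Fam76a (0.83), Bhlhe40 (0.83), the closest relative of Bhlhe41, Tns2 (0.81), Cdc40 (0.81) and Gm50012 (0.81) came next. The most opposite genes were Npas2 (-0.94), Arntl (-0.91), Foxs1 (-0.91), a forkhead factor, and Clock (-0.88). For Cdc40 and Gm50012 the r was 0.39 and 0.44 with the group means subtracted.

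**Figure D5:**
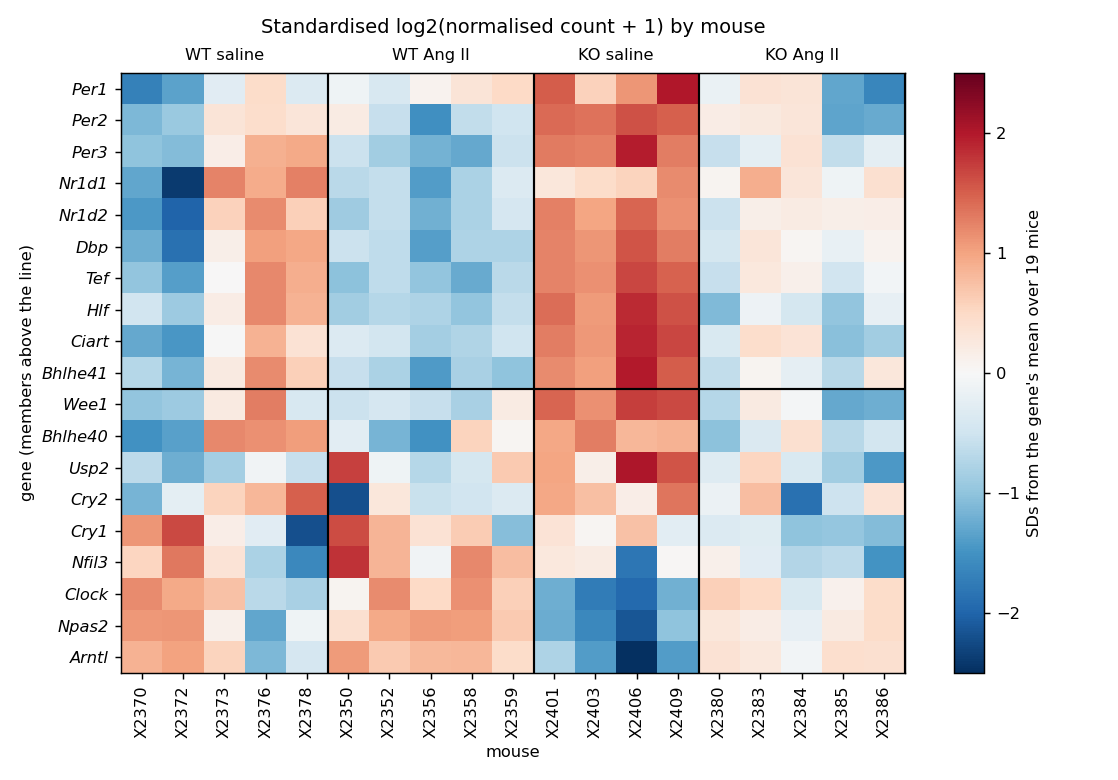
Log2(normalised count + 1) of the 10 members (above the line) and 9 other clock or clock output genes in each mouse, in SDs from the mean of the gene over 19 mice (red high, blue low). Members are high in the 4 saline-infused KO (IKKβ-/-) mice and, for most of them, in X2376 and X2378, and low in X2370, X2372 and, except for Per1, most Ang II-treated WT (IKKβ+/+) mice, with Arntl, Npas2 and Clock the other way round.

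Genes that act on clock proteins or follow the clock changed in part. Of 10 kinases, phosphatase and ubiquitin pathway genes, Usp2, a deubiquitinase with clock-driven transcription, fell with Ang II in IKKβ-/- aortas (log2 -1.18 ± 0.32, adjusted p = 0.0525), as did Gsk3b (-0.34, adjusted p = 0.049). With saline Usp2 (1.305, adjusted p = 0.0522) and Csnk1e (0.51, adjusted p = 0.0902) were higher in IKKβ-/- aortas. No gene of this list passed in IKKβ+/+ mice. Of 9 widely rhythmic output genes, 3 fell and 1 rose with Ang II in IKKβ-/- aortas, where 2.69% of genes tested fell and 2.59% rose. With saline 4 were higher and 1 lower in IKKβ-/- aortas, against 3.40% and 2.07% of genes tested. In IKKβ+/+ mice 1 rose with Ang II, as did 4.33% of genes tested. In IKKβ-/- aortas Wee1 fell with Ang II by 1.70 and Coq10b by 1.32 on the log2 scale (adjusted p = 0.008 and 0.0147), while Leo1 rose by 0.96 (adjusted p = 0.0389). With saline Wee1 (1.34, adjusted p = 0.0483) and Coq10b (1.29, adjusted p = 0.0367) were higher and Leo1 lower (-1.14, adjusted p = 0.0367). Por, the electron donor of cytochrome P450 enzymes, rose in IKKβ+/+ mice (0.93, adjusted p = 0.0463).

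Lists of glucocorticoid-induced, immediate early and temperature-responsive genes were read beside the members. Of 16 glucocorticoid-induced genes, 10 rose with Ang II in IKKβ+/+ aortas, where 4.33% of genes tested rose, led by Mt2 (2.82), Lcn2 (2.15) and Errfi1 (1.80) on the log2 scale (adjusted p = 0.00407, 0.0258 and 0.0102). In IKKβ-/- aortas, where 2.59% of genes tested rose, 2 rose, Lcn2 (4.44, adjusted p = 0.000553) and Mt2 (1.84, adjusted p = 0.053). With saline, Klf9 (0.92, adjusted p = 0.0367) and Cebpd (0.76, adjusted p = 0.0784) were higher and Lcn2 (-2.16, adjusted p = 0.0563) lower in IKKβ-/- aortas. Klf9 also stands among the output genes. Other stimuli can change genes of this list too, and its part in the changes of the members was not tested.

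Immediate early genes, which stress and handling induce within minutes, fell with the evening arm in IKKβ-/- aortas, where 2.69% of genes tested fell. Of 14, 8 fell with Ang II and none rose, led by Atf3 (-4.18), Fos (-2.91) and Fosb (-2.88) on the log2 scale (adjusted p = 0.00793, 0.0144 and 0.0483). Their sum ran from 17651 to 47292 normalised counts in saline-infused and from 6761 to 7471 in Ang II-treated IKKβ-/- mice, and from 9103 to 32892 and 8183 to 24338 in the IKKβ+/+ groups. In IKKβ+/+ mice Fos fell (-1.71, adjusted p = 0.088) and Nr4a2 (1.202, adjusted p = 0.0416) and Sik1 (0.94, adjusted p = 0.0844) rose. Of 11 temperature-responsive genes, 4 fell in IKKβ-/- aortas, led by Hspa1a (-4.43), Hspa1b (-4.18) and Dnajb1 (-1.71), with adjusted p = 0.0104, 0.0177 and 0.0561. Atf3 and Rbm3 were higher in IKKβ-/- aortas with saline (2.40 and 0.72, adjusted p = 0.0971 and 0.0988). In X2406 the sum of the temperature-responsive genes was 19698, against 47338 to 57605 in the other saline-infused IKKβ-/- mice, while it had the highest value of these 4 mice in 8 members. The part of these genes in the changes of the members was not tested.

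Few markers of other cell types passed the test. Macrophage markers were lower in IKKβ-/- aortas with saline in 2 of 6 (Adgre1 -1.02 and Cd68 -0.93, adjusted p = 0.0779 and 0.0674), where 2.07% of genes tested were lower. The sum of the 6 with saline ran from 3463 to 4903 normalised counts in IKKβ-/- and from 5993 to 7937 in IKKβ+/+ mice. Among smooth muscle markers Cnn1 (0.82, adjusted p = 0.0302) and Tagln (0.66, adjusted p = 0.0653) rose with Ang II in IKKβ+/+ aortas, and none passed in the other comparisons. The fibroblast marker Lum fell (-1.27, adjusted p = 0.0757) and the skeletal muscle marker Ckm rose (2.93, adjusted p = 0.000988) in IKKβ+/+ mice. Of 6 endothelial markers Kdr alone passed for Ang II in IKKβ-/- mice, as higher (1.79, adjusted p = 0.099). The estimate was negative in 4 of these 6, with a median of -0.14. The Schwann cell marker Sox10 rose with Ang II in IKKβ-/- mice (1.74, adjusted p = 0.0971). No brown adipocyte or blood marker passed. Their part in the changes of the members was not tested.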

How the data were processed

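Poly(A) RNA was sequenced as single reads by the authors, trimmed with Trimmomatic 0.35, aligned to GRCm38 and counted on Gencode M25 genes with STAR 2.7.1a, versions per the labels and the submitters' processing notes. The signal deposited by the authors is the count normalised with DESeq2 1.30.1. All values (100%) were whole multiples of 1 read within 0.01, and reads were recovered from them. Genes with at least 10 normalised counts in at least 4 mice were tested (14845, with 5563 left out), since genes with fewer reads have little precision. Log2(value + 1) was fitted in R 4.3.3 with limma 3.58.1 (lmFit, eBayes with trend), 1 mean per group over 19 mice, with two-sided tests in 5 comparisons. edgeR 4.0.16 and DESeq2 1.42.0 on the recovered reads were alternatives, as were a pseudocount of 4, TMM scaling, no filter, array quality weights, only the compared groups in the fit, other thresholds and each mouse left out. Fits were also run on simulated reads with the same dispersion for all genes and known changes in Ang II-treated IKKβ+/+ mice only. That run held no split group like the saline-infused IKKβ+/+ mice and no unusual library, so it does not cover those conditions. Separate mice gave separate libraries, and the closest of 36 pairs within a group differed by a chi-square of 21.1 per gene.

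All members were named, and from each list at most 3 genes per comparison past the threshold with the largest change, plus the 8 genes most like and the 4 least like the mean of the members. The members and lists were chosen with earlier results of these data known. The lists held 11 core clock genes, 10 clock protein modifiers, 9 output genes, 16 glucocorticoid-induced, 14 immediate early and 11 temperature-responsive genes, and markers of 9 cell types. Cry1, Cry2, Nfil3 and further core clock genes without a call were named after their values were seen. Some genes of the lists are not reported here.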

Additional observations from a re-analysis of the deposited data

Results flagged for a closer look

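Of 40 combinations of member and group, 3 held a mouse far from the others of its group, and chance flags about 1 in 20. Per3 was 1616 normalised counts in the saline-infused IKKβ-/- mouse X2406, with the next mouse at 888. In Ang II-treated IKKβ-/- mice Per3 was 386 in X2384, with the next at 224. Nr1d2 was 1277 in X2380, with the other 4 Ang II-treated IKKβ-/- mice at 1927 or more.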

How the results depend on the processing

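The number of members past the threshold for Ang II in IKKβ+/+ mice, 1, was 5 with edgeR and 5 with DESeq2, and 0 at an adjusted p under 0.05, and ran from 0 to 6 with single mice left out. For IKKβ-/- against IKKβ+/+ mice with saline, 9, it was 3 at an adjusted p under 0.05 and ran from 0 (without X2406) to 9 with single mice left out. For the difference between the Ang II effects, 0, it was 1 with array quality weights and 1 with DESeq2, Per1 in both. The log2 fold change of Ciart with Ang II in IKKβ+/+ mice ran from -1.07 to 0.036, the latter without X2376, with single mice left out. For the single members, 318 of the values under other settings kept their direction and their side of the threshold, 11 passed only there and 11 no longer passed. With single mice left out, 512 did so, 8 passed only there, 49 no longer passed and 1 changed sign. The cause was not tested. TMM scaling moved the median of all genes by less than 0.05. Ciart had as few as 3 reads in a mouse, which limits its fold changes.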
